A study of Mus musculus with 4 samples.

Results

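The mitosis and kinetochore genes examined here are 53 genes listed by symbol for their known roles in cell division: mitotic cyclins and kinases, the chromosomal passenger complex, the spindle checkpoint, kinetochore and centromere proteins, mitotic kinesins, condensin, regulators of anaphase and proliferation markers. Of these, 52 had a probe set annotated to exactly 1 gene, out of 18193 genes so represented, and Ccnb1 was not analysed here. Each gene was read from the brightest of its probe sets, by the mean over the 4 arrays. The data are 4 Affymetrix expression arrays of total RNA, 2 of SMRTmRID cells and 2 of wild-type cells. The cells of both genotypes were 3T3-MEFs, mouse embryonic fibroblasts that were passaged on a fixed schedule and became immortal, taken undifferentiated once the cultures were confluent. SMRT is a corepressor of nuclear receptors, and SMRTmRID carries a mutated receptor interaction domain. No further allele, treatment or age is given, nor how many lines or embryos stand behind a genotype. The labels call the 2 arrays of a genotype technical replicates, so each p-value measures the spread between such arrays, and line and genotype cannot be told apart.

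Mitotic genes are switched on late in the cell cycle. Their transcription depends on B-Myb (Mybl2) and FoxM1, which act with the MuvB proteins at promoters that carry the cell cycle genes homology region (CHR), and in resting cells the DREAM complex of MuvB, E2F and pocket proteins silences the same promoters. At mitosis Cdk1 with cyclins A and B drives entry, condensin compacts the chromosomes, the kinetochore ties centromeres to spindle microtubules, and the checkpoint holds back the anaphase-promoting complex until every chromosome is attached. In fibroblast cultures the transcripts are widely used as a measure of proliferation. A lower signal in RNA from a whole culture can come from fewer cells in mitosis or from less RNA per cell, and the arrays cannot tell these apart.

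The signals are MAS5 intensities on a linear scale, with the same trimmed mean on each array. Differences are SMRTmRID minus wild-type of log2(signal + 16), which understates changes of dim genes, and a gene was called at an adjusted p under 0.05 (limma, Benjamini-Hochberg over 11057 genes whose mean signal exceeded 35.1). Fibroblast markers were strong, with summed signals of 83769 to 88172 in SMRTmRID and 70140.1 to 71950.0 in wild-type. All 10 were above that level by their mean over the 4 arrays, but markers moved with the genotype. Thy1 and Lum exceeded the level only through SMRTmRID and lay below it on both wild-type arrays. Thy1 had mean signals of 3178 in SMRTmRID and 13.6 in wild-type, Lum 183 in SMRTmRID and 3.15 in wild-type, and Pdgfra 4959 in SMRTmRID and 254 in wild-type. None of 4 endothelial, 4 skeletal muscle and 3 adipocyte markers exceeded the level, nor did 4 of 5 epithelial and 3 of 5 blood cell markers by their mean over the arrays. Of these the epithelial cadherin gene Cdh1 had signals of 2.41 and 1.61 in SMRTmRID, against 55.9 and 42.3 in wild-type. The part of such differences between the cultures in the results on mitotic genes was not tested. All 52 mitotic genes exceeded the level, so none of them was lost to the filter. Their median absolute log2 difference was 0.0823 within SMRTmRID and 0.0791 within wild-type, against 0.55 across genotypes. For all genes tested these values were 0.0987, 0.0983 and 0.43.

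The mitotic genes did not move as a block. In SMRTmRID cells 28 of the 52 were lower, 13 were higher and 11 did not pass the test. Among all genes tested 65.2% were called, 35.0% as lower and 30.3% as higher, so the share called here, 78.8%, and the share lower, 53.8%, stood above those of all genes, and the share higher, 25.0%, below. The median log2 difference was -0.22, beside -0.05 for all genes tested. SMRTmRID and wild-type arrays were fully separated for 46 of the 52 genes, or 88.5%, against 81.5% of all genes tested. Separate arrays in a single group of genes below are to be read beside that share. Counts of genes called in a group are to be read beside the 65.2% called, 35.0% lower and 30.3% higher. Differences ran from -1.88 for Mybl2 to 1.32 for Kif20b. Centring each array on its median shifted the median of all genes by a further -0.16 and changed the split of all calls to 34.3% higher and 65.7% lower, against 46.4% and 53.6% without it. Of the mitotic genes it left 10 higher and 31 lower.

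**Figure D1:**
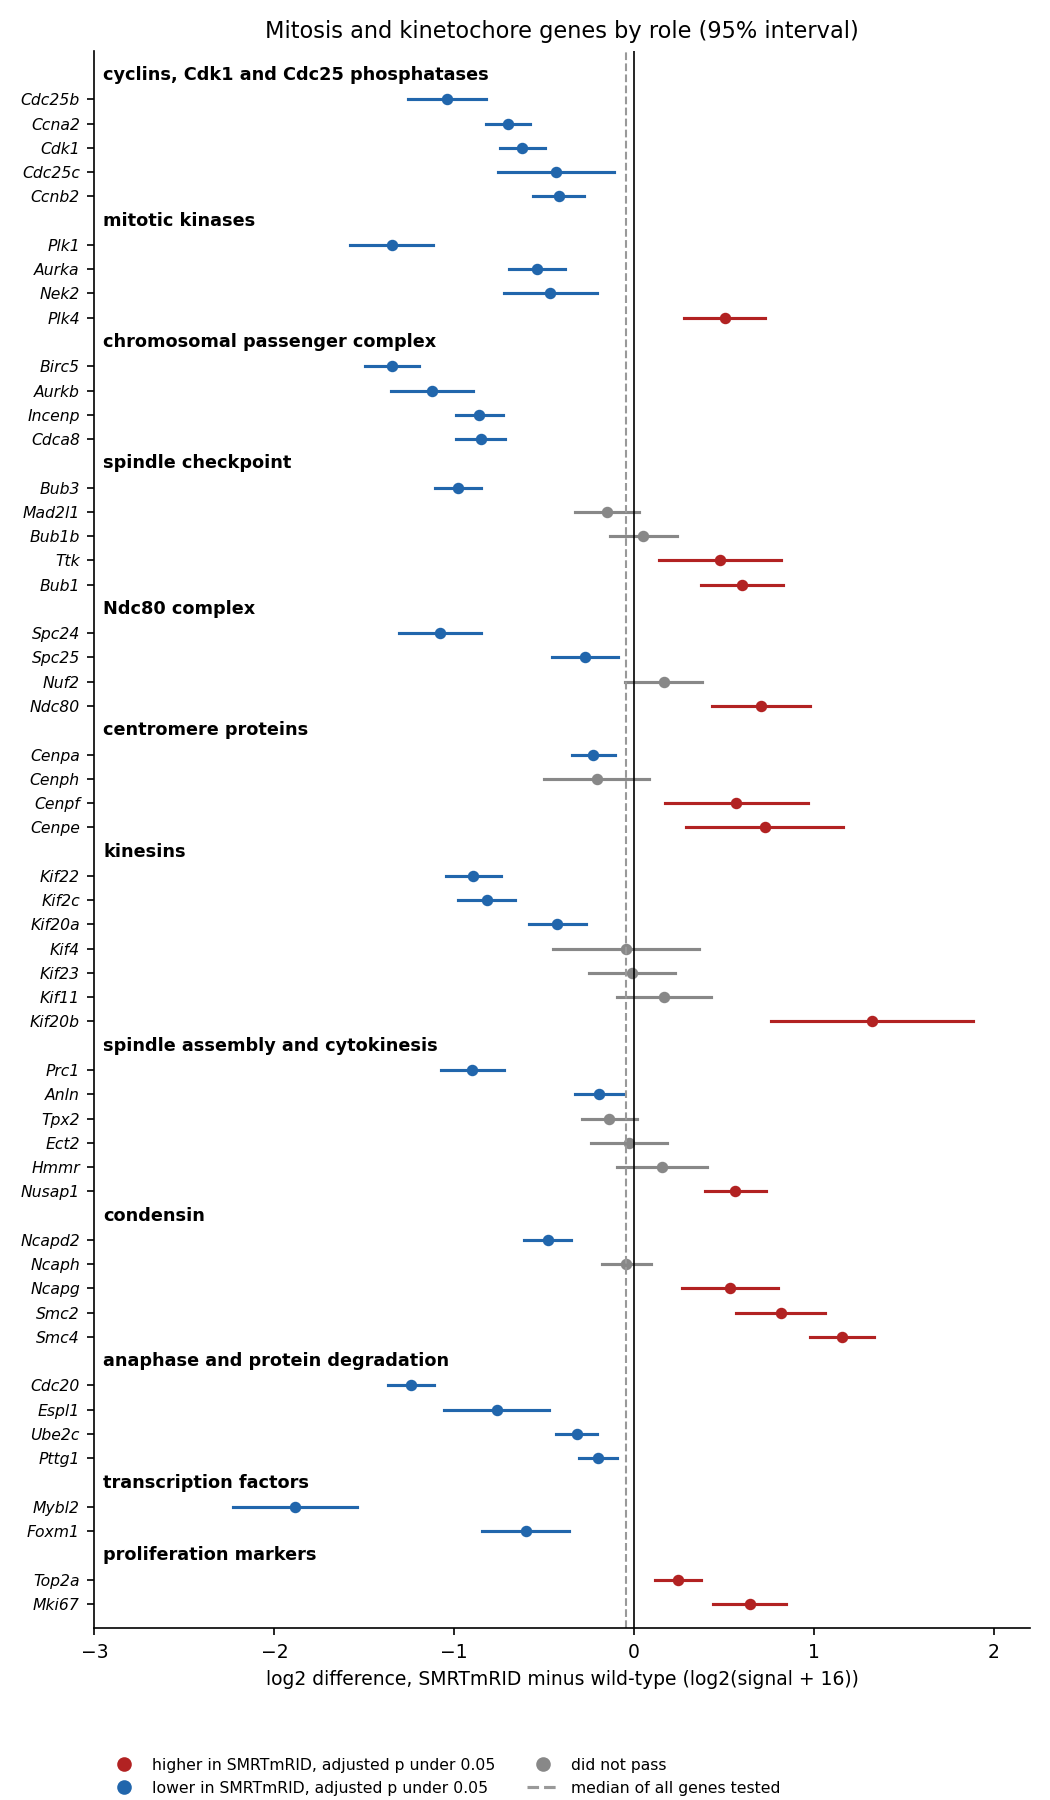
Log2 difference of 52 mitosis and kinetochore genes, SMRTmRID minus wild-type, with its 95% interval (limma, 2 arrays per genotype), grouped by role; red and blue mark genes called higher and lower, grey those that did not pass, and the dashed line the median of all genes tested. All genes shown for the passenger complex, the cyclin and Cdk1 group and anaphase lie left of 0, while condensin, the checkpoint and the Ndc80 complex hold genes on both sides.

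Both transcription factors that drive mitotic genes were lower. Mybl2, which encodes B-Myb, had signals of 49.8 and 44.9 in SMRTmRID, against 215 and 220.5 in wild-type. Its log2 difference of -1.88 ± 0.15 (SE) was the greatest fall of the 52 (adjusted p = 3.96e-06, limma). A dimmer second probe set of Mybl2 fell by less, with a log2 difference of -0.54 (adjusted p = 0.0496 in a fit over probe sets). Foxm1 had signals of 250.1 and 233 in SMRTmRID, against 414 and 340.1 in wild-type, a log2 difference of -0.60 ± 0.11 (SE), and its other 2 probe sets above the filter gave -0.55 and -0.52. For both genes the lowest wild-type array stood above the highest SMRTmRID array, and arrays were apart for 81.5% of all genes tested.

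Promoters of these genes were searched for the 2 elements known for this regulation. A window of 300 bases, 250 before and 50 from the annotated start, was found for 44 of the 53 genes (RefSeq, GRCm38.p6; Bub3, Ect2 and Prc1 with 2 windows each). The CHR was taken as TTTGAA or TTCGAA and the box bound by the factor NF-Y as CCAAT, each on either strand. TTCGAA reads the same on both strands, and adjoining matches of the motifs may share a letter. A CHR lay in 32 of the 44 genes, or 72.7%, and in 21.7% of the 27025 genes of the promoter table. A CCAAT box lay in 32, or 72.7%, against 41.1%, and both together in 63.6%, against 8.61%.

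The CHR was present in genes that changed in either direction. It lay in 9 of the 12 genes with a window that rose and in 17 of the 21 that fell, and a CCAAT box in 8 and 16 of them. Of the 10 that did not pass, 6 held a CHR and 7 a CCAAT box. A CHR lay in 64.1% of 64 other mitotic genes and 21.2% of 33 S-phase genes, and a CCAAT box in 65.6% and 69.7%. Windows of 130 bases, 80 before and 50 from the start, are shown for the 3 greatest falls and the 3 greatest rises that hold a CHR there and have a single window, to set both directions side by side. Capitals mark the CHR and the CCAAT box, on either strand, so that TTCAAA and ATTGG are their reverse complements.
Plk1 (chr7:122159355-122159484, plus strand): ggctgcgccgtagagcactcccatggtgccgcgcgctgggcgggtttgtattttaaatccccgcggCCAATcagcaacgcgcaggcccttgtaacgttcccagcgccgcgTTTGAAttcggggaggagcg
Cdc20 (chr4:118437294-118437423, minus strand): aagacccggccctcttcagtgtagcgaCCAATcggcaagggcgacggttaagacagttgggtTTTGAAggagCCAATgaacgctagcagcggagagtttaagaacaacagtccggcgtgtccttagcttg
Cdc25b (chr2:131186868-131186997, plus strand): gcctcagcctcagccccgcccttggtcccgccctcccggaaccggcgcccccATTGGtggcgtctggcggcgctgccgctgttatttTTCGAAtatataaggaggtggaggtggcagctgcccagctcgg
Kif20b (chr19:34922278-34922407, plus strand): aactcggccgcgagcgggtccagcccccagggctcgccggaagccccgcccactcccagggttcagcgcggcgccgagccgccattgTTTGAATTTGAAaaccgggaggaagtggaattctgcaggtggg
Smc2 (chr4:52439141-52439270, plus strand): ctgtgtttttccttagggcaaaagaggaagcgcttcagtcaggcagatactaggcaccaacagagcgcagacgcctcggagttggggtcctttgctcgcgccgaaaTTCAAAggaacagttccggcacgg
Ndc80 (chr17:71526808-71526937, minus strand): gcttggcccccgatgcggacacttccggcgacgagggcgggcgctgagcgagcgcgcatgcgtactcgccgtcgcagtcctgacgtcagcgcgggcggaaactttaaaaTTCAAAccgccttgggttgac
The first 3, of Plk1, Cdc20 and Cdc25b, belong to genes that fell and hold a CCAAT box in the same stretch. The last 3, of Kif20b, Smc2 and Ndc80, belong to genes that rose and hold no CCAAT box in the stretch shown, though the 300-base window of Smc2 does farther out. Kif20b has 2 CHR copies next to each other. A match is a description of letters, and binding was not measured.

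The kinase and cyclins that start mitosis were lower in SMRTmRID, with all 5 genes of this group past the test. Of all genes tested 65.2% passed, 35.0% of them all as lower. Cdk1, the kinase itself, had signals of 1269 and 1257 in SMRTmRID, against 1872 and 2030.3 in wild-type. Cyclin A2, one of its partners, is encoded by Ccna2, with signals of 789 and 813 in SMRTmRID, against 1285 and 1336 in wild-type. Cyclin B2 is encoded by Ccnb2, with signals of 579 and 585 in SMRTmRID, against 757 and 809 in wild-type. In each case the arrays of the genotypes were apart, as for 81.5% of all genes tested. The log2 differences were -0.62 ± 0.05 (SE), -0.70 ± 0.05 (SE) and -0.42 ± 0.06 (SE). A second probe set of Ccna2 gave only -0.088 and did not pass. Cdc25b and Cdc25c encode phosphatases that remove the inhibitory phosphates from Cdk1. Cdc25b had signals of 196 and 175 in SMRTmRID, against 402 and 392 in wild-type, a log2 difference of -1.04 ± 0.10 (SE). Cdc25c had 101 and 94.7 in SMRTmRID, against 135 and 139.9 in wild-type, a smaller gap of -0.44 ± 0.14 (SE) (adjusted p = 0.0231, limma). The call for Cdc25c was lost without SMRTmRID replicate 2 and without either wild-type array (adjusted p between 0.0620 and 0.0905), and its second probe set gave -0.070.

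Of the 4 kinases grouped as mitotic kinases, apart from those of the passenger complex and the checkpoint, 3 fell and 1 rose. The shares among all genes tested were 35.0% and 30.3%. Plk1, the polo-like kinase that acts from centrosome maturation to cytokinesis, had signals of 269.7 and 235 in SMRTmRID, against 728 and 609 in wild-type. The log2 difference was -1.35 ± 0.10 (SE) (adjusted p = 2.77e-06, limma), about as great as that of Birc5. Aurka, the spindle pole kinase, had signals of 428 and 406 in SMRTmRID, against 611 and 616 in wild-type, and Nek2, a kinase that separates the centrosomes, 235 and 233 in SMRTmRID, against 294 and 369 in wild-type. Their log2 differences were -0.54 ± 0.07 (SE) and -0.47 ± 0.11 (SE), and the wild-type arrays of Nek2 were farther apart than its SMRTmRID arrays. Plk4 went the other way. This kinase controls centriole duplication, and its signals were 469 and 388 in SMRTmRID, against 289 and 303 in wild-type, a log2 difference of 0.50 ± 0.10 (SE). Other probe sets of Plk4 gave 0.49, called higher, and 0.16, which did not pass. The 95% intervals of the 2 polo-like kinases lay on opposite sides of 0, at -1.58 to -1.12 for Plk1 and 0.28 to 0.73 for Plk4.

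The chromosomal passenger complex, which corrects faulty attachments at the centromere and then moves to the central spindle, was lower in all 4 of its subunits. Among all genes tested 35.0% were lower. The kinase subunit Aurkb had signals of 175 and 207 in SMRTmRID, against 438 and 428 in wild-type. Birc5, which encodes survivin, had 576 and 634 in SMRTmRID, against 1503 and 1621 in wild-type. For the scaffold gene Incenp the signals were 770.4 and 809 in SMRTmRID, against 1404 and 1489 in wild-type, and for Cdca8, which encodes borealin, 502 and 512 in SMRTmRID, against 910.4 and 945 in wild-type. Each subunit had its highest SMRTmRID array well below its lowest wild-type array. The log2 differences were -1.35 ± 0.07 (SE) for Birc5, -1.12 ± 0.10 (SE) for Aurkb, -0.86 ± 0.06 (SE) for Incenp and -0.85 ± 0.06 (SE) for Cdca8. Of 6 further probe sets of these genes above the filter, 5 passed in the same direction and 1 of Incenp did not pass, at 0.14.

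**Figure D2:**
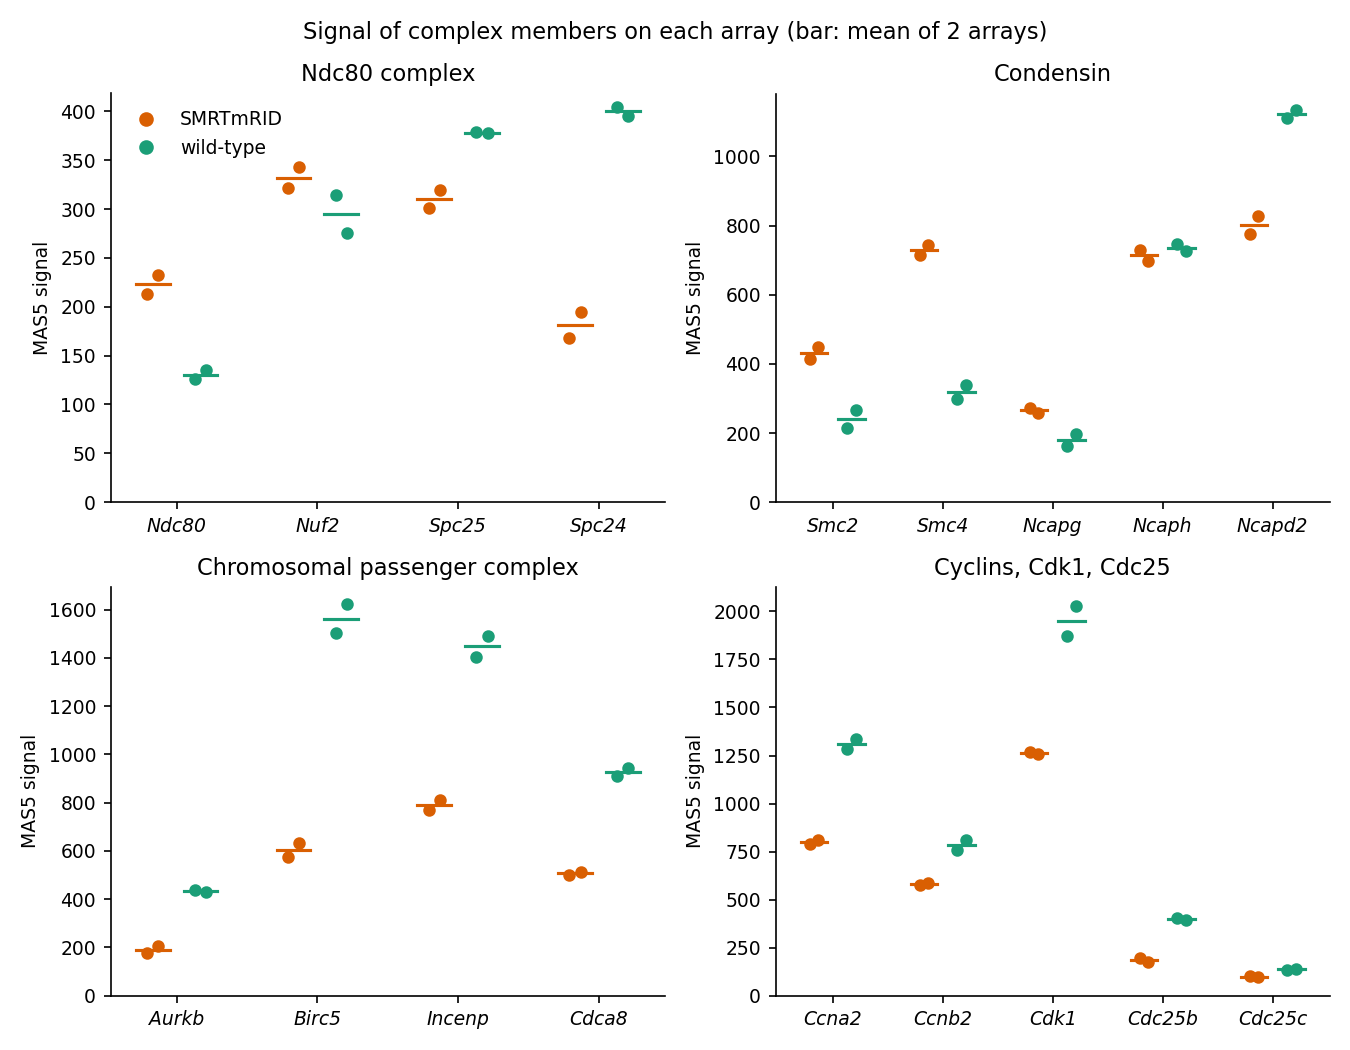
MAS5 signal (linear axis from 0) of the genes of 4 groups on each of the 4 arrays, SMRTmRID left of wild-type for each gene, with bars at the mean of 2 arrays; signals are comparable within a gene, not between genes. Ndc80, Smc2, Smc4 and Ncapg have SMRTmRID arrays above the wild-type arrays, and the passenger complex and the cyclin group have them below.

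Spindle checkpoint genes were split. Bub1, a kinase that recruits other checkpoint proteins to the kinetochore, had signals of 275 and 283 in SMRTmRID, against 174 and 183 in wild-type, a log2 difference of 0.60 ± 0.10 (SE). Ttk, the kinase that starts checkpoint signalling, had 149 and 146 in SMRTmRID, against 91.5 and 112 in wild-type. The difference of Ttk, 0.48 ± 0.15 (SE), passed narrowly (adjusted p = 0.0189, limma) and did not without SMRTmRID replicate 1 (0.0662), SMRTmRID replicate 2 (0.0533) or wild-type replicate 1 (0.101). Bub3, which docks Bub1 and BubR1 on the kinetochore, fell. Its signals were 877 and 951 in SMRTmRID, against 1834 and 1797 in wild-type, a log2 difference of -0.98 ± 0.06 (SE). A dimmer second probe set of Bub3 was called lower as well but fell by less, at -0.43. Bub1b, which encodes BubR1, had 515 and 495 in SMRTmRID, against 524 and 452 in wild-type, and Mad2l1, the Cdc20 inhibitor, 871 and 737 in SMRTmRID, against 915 and 869 in wild-type. The arrays of both genes overlapped, and neither passed. The 95% intervals of their differences were -0.14 to 0.24 and -0.33 to 0.03. Without SMRTmRID replicate 1, Mad2l1 passed at -0.27 (adjusted p = 0.0112, limma), and a second probe set of Bub1b was lower by the test, at -0.63, unlike its brightest one.

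In the Ndc80 complex, the rod that binds the spindle microtubule, 1 gene rose, 2 fell and 1 did not pass. Its outer, microtubule-binding end is made of Ndc80 and Nuf2, and its inner end, which faces the centromere, of Spc24 and Spc25. Ndc80 had signals of 213 and 233 in SMRTmRID, against 126 and 135 in wild-type, so that its SMRTmRID arrays lay above the wild-type arrays. Nuf2 had 322 and 343 in SMRTmRID, against 315 and 276 in wild-type, also without overlap, but its difference of 0.16 ± 0.10 (SE) did not pass. Spc24 was lower, with signals of 168 and 195 in SMRTmRID, against 404 and 396 in wild-type. Spc25 had 301 and 319 in SMRTmRID, against 379 and 378 in wild-type. The 95% intervals were 0.44 to 0.98 for Ndc80, -0.05 to 0.38 for Nuf2, -0.46 to -0.09 for Spc25 and -1.31 to -0.85 for Spc24, with those of Ndc80 and Spc24 far apart. The call for Spc25 was lost without SMRTmRID replicate 1 (adjusted p = 0.0719, limma).

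Among the centromere proteins 2 coiled-coil proteins of the outer kinetochore rose. Cenpe, a kinesin that carries chromosomes to the spindle equator, had signals of 102 and 89.6 in SMRTmRID, against 47.1 and 56.0 in wild-type, and Cenpf, a partner of the motor dynein, had 117 and 97.7 in SMRTmRID, against 65.1 and 69.0 in wild-type. These were dim genes, and their calls did not hold with every array left out in turn. Without SMRTmRID replicate 1 neither passed (adjusted p = 0.0579 for Cenpe and 0.121 for Cenpf, limma), and Cenpf did not without wild-type replicate 1 (0.0564). With all arrays the differences were 0.73 ± 0.19 (SE) and 0.57 ± 0.18 (SE). Cenpa, the histone variant that marks the centromere, was lower by a small amount, with signals of 1105 and 1143 in SMRTmRID, against 1345 and 1292 in wild-type and a log2 difference of -0.23 ± 0.05 (SE). Cenph, of the inner kinetochore, had 166 and 169 in SMRTmRID, against 177 and 218 in wild-type and did not pass.

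The 7 kinesins gave 3 falls, 1 rise and 3 that did not pass, where 35.0% of all genes tested fell and 30.3% rose. Kif22, a chromokinesin that pushes chromosome arms, had signals of 1046 and 959 in SMRTmRID, against 1982 and 1771 in wild-type. Its log2 difference was -0.89 ± 0.07 (SE) on the brightest probe set and -1.62 and -1.47 on the others. Kif2c, the microtubule depolymerase of the centromere, had 422 and 422 in SMRTmRID, against 791 and 722 in wild-type, and Kif20a, which moves the passenger complex to the central spindle, 469.7 and 467 in SMRTmRID, against 608 and 662 in wild-type. Their differences were -0.82 ± 0.07 (SE) and -0.43 ± 0.07 (SE). Kif20b, a relative of Kif20a that acts in cytokinesis, moved the other way, with signals of 127 and 116 in SMRTmRID, against 27.1 and 54.2 in wild-type. Its difference of 1.32 ± 0.25 (SE) was the greatest rise of the 52, but from a low signal and with wild-type arrays that differed by a log2 of 0.71, the widest gap between wild-type arrays among the 52. Kif11, the motor that pushes spindle poles apart, Kif23, of the central spindle, and Kif4, a chromokinesin, had differences of 0.17, -0.0094 and -0.043.

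Genes of spindle assembly and cytokinesis were mixed as well. Prc1, which bundles the microtubules of the central spindle, had signals of 331 and 319 in SMRTmRID, against 591 and 649 in wild-type, a log2 difference of -0.90 ± 0.08 (SE). Anln, the actin-binding protein of the cleavage furrow, had 849 and 800.0 in SMRTmRID, against 928 and 964 in wild-type, a difference of -0.20 ± 0.06 (SE). The call for Anln was lost without SMRTmRID replicate 2 (adjusted p = 0.0938, limma) and without wild-type replicate 2 (0.0735). Nusap1, which bundles microtubules near chromatin, rose, with signals of 517 and 492 in SMRTmRID, against 343 and 331 in wild-type and a difference of 0.56 ± 0.08 (SE). Tpx2, the activator of Aurora A, Ect2, which turns on the small GTPase of the furrow, and Hmmr, a spindle pole protein, did not pass, with 95% intervals of -0.29 to 0.02, -0.24 to 0.18 and -0.10 to 0.41. Hmmr had a probe set of lower signal that was called higher, at 0.49.

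In condensin both SMC subunits rose, and of the other 3 subunits 1 rose, 1 fell and 1 did not pass. Smc4 had signals of 716 and 743 in SMRTmRID, against 299 and 339 in wild-type, and its partner Smc2 415 and 449.5 in SMRTmRID, against 214 and 266 in wild-type. The SMRTmRID arrays of both lay far above the wild-type arrays, with log2 differences of 1.16 ± 0.08 (SE) and 0.82 ± 0.11 (SE) (adjusted p = 1.44e-06 and 0.000131, limma). The other 2 probe sets of Smc4 gave 0.88 and 0.97. Ncapg, Ncaph and Ncapd2 encode the non-SMC subunits of condensin I. Ncapg had 274 and 257 in SMRTmRID, against 161 and 196 in wild-type, a difference of 0.53 ± 0.12 (SE). Ncaph had 730.2 and 698 in SMRTmRID, against 747 and 725 in wild-type, with overlapping arrays and a 95% interval of -0.18 to 0.09. Ncapd2 had 776 and 826 in SMRTmRID, against 1112 and 1133 in wild-type and fell, at -0.48 ± 0.06 (SE). Of the condensin II subunits, Ncapg2 and Ncapd3 rose by 1.08 and 0.41 on the log2 scale and Ncaph2 had a log2 difference of -0.51.

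The 4 genes listed under anaphase and protein degradation were lower, as were 35.0% of all genes tested. Cdc20, the activator of the anaphase-promoting complex, had signals of 639.7 and 616 in SMRTmRID, against 1541 and 1468 in wild-type. Its difference of -1.24 ± 0.06 (SE) had the lowest adjusted p of the 52 (1.07e-07, limma), and its other probe sets gave -1.11 and -1.45. Ube2c, the ubiquitin-conjugating enzyme of that complex, had 1441 and 1503 in SMRTmRID, against 1812 and 1869 in wild-type. Espl1, the protease separase that cuts cohesin, had 157 and 127 in SMRTmRID, against 266 and 238 in wild-type, and Pttg1, its inhibitor securin, 1785 and 1788 in SMRTmRID, against 2026 and 2083 in wild-type. The arrays did not overlap for any of the 4, nor did they for 81.5% of all genes tested. Differences were -0.76 ± 0.13 (SE) for Espl1, -0.32 ± 0.05 (SE) for Ube2c and -0.20 ± 0.05 (SE) for Pttg1, whose call was lost with quantile normalization (adjusted p = 0.123, limma). The second probe set of Pttg1 was called lower as well, at -0.49.

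The 2 genes listed here as proliferation markers were higher in SMRTmRID, unlike most of the list. Pcna, listed with the S-phase genes, was lower, at a log2 difference of -0.23. Of the S-phase genes tested, 26 were lower and 8 were higher, or 60.5% and 18.6%, against 35.0% and 30.3% of all genes tested. Mki67, which encodes the Ki-67 antigen, had signals of 362 and 346 in SMRTmRID, against 215 and 227 in wild-type. Top2a, the topoisomerase that untangles sister chromatids, had 1010.4 and 970.2 in SMRTmRID, against 818 and 846 in wild-type. The SMRTmRID arrays lay above the wild-type arrays for both, with differences of 0.64 ± 0.09 (SE) and 0.25 ± 0.06 (SE). That of Top2a was small: it was 0.084 and did not pass when each array was centred on its median (adjusted p = 0.496, limma), and its second probe set gave 0.058. Mki67 thus differed in sign from Plk1 and Birc5, which were lower.

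The other probe sets of the same genes were checked. The 52 genes had 122 probe sets, and 16 genes had only 1. Beyond the brightest, 45 probe sets exceeded the filter and 25 did not. Of the 34 that belong to genes called, 32 had the sign of the brightest probe set, 23 had the same call, 11 did not pass and none was called the opposite way (limma over 22481 probe sets, of which 59.5% were called). The exceptions in sign were 1 probe set each of Incenp and Cenpa. With all probe sets of a gene averaged, dim ones included, 31 genes were called: 30 of the 41, and Bub1b, which was then lower.

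**Figure D3:**
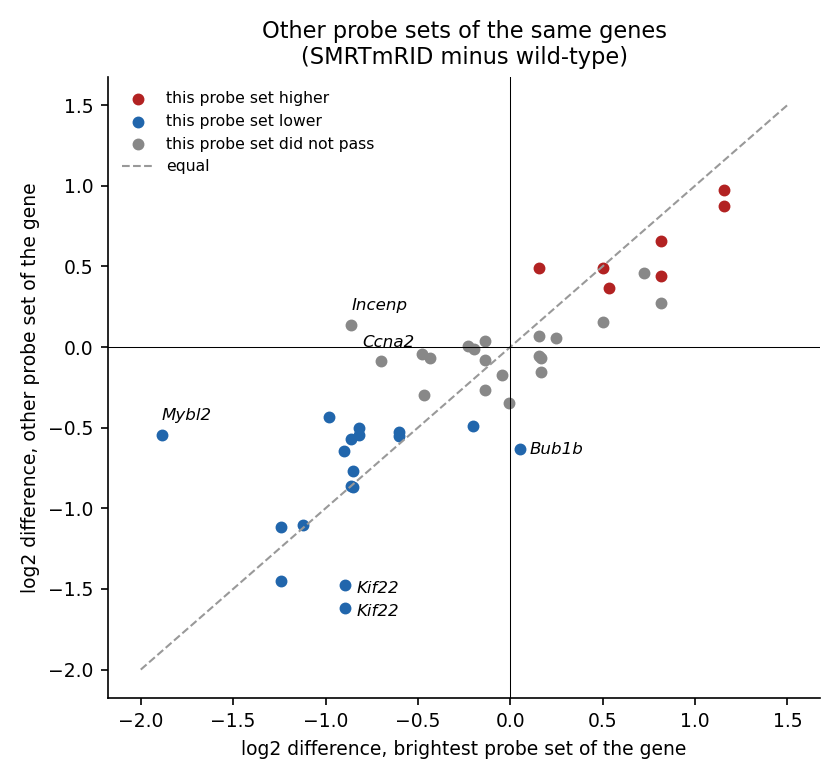
Log2 difference (SMRTmRID minus wild-type) of 45 other probe sets above the filter against that of the brightest probe set of the same gene; the dashed line marks equality and colour the call of the other probe set. Most points keep the sign of the brightest probe set, Mybl2 and Ccna2 lie nearer 0 on the second one, and Kif22 farther away.

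Lists of neighbouring genes without any of the 52 were examined with the same fit. Among 74 other mitotic genes 36 were lower, 14 were higher and 24 did not pass. The share called, 67.6%, was near the 65.2% of all genes tested. The share lower was 48.6% and the share higher 18.9%, against 35.0% and 30.3% of all genes tested. The median log2 difference of these 74 genes, -0.24, was close to that of the 52. The greatest changes were falls of Psrc1, a spindle protein and p53 target, at -2.46, Iqgap3 at -1.93, the cohesion factor gene Cdca5 at -1.54 and Gtse1 at -1.44. Kinetochore genes of this list lay on both sides. Zwint, which links Knl1 to the checkpoint, rose by 1.22 on the log2 scale and the inner kinetochore genes Cenpq and Cenpc1 by 0.91 and 0.88, whereas Cenpt, which tethers the Ndc80 complex, had a difference of -1.09. Sgo1 and Sgo2a, the shugoshins that protect cohesin at the centromere, rose by 0.73 and 0.67. Kinetochore and condensin II genes named here beyond the first 4, and Pcna, were chosen after their values were seen.

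S-phase genes were mostly lower. Of all genes tested 35.0% were lower and 30.3% higher, and the counts in this paragraph are to be read beside these shares. Among 43 S-phase genes 26 were lower, or 60.5%, 8 were higher, or 18.6%, and 9 did not pass. The median was -0.46, and without SMRTmRID replicate 2 the count of rises was 5. The helicase gene Mcm5 fell by 1.61 on the log2 scale and Rrm2 by 1.56, while Casp8ap2 rose by 1.28 and E2f8, an inhibitory E2F, had a difference of -1.11. Of 16 genes of the anaphase-promoting complex and its cofactors 9 fell and 3 rose, with Anapc15 at -1.19, Ube2s at -0.97, Fzr1 at -0.57 and Cdc27 at 1.08. Of 10 genes of the DREAM complex 5 rose and 4 fell. Those that rose were E2f5, Lin9, Tfdp2, Lin54 and Rbl1, with 1.06 for E2f5 and 0.74 for Lin9, and Lin37, E2f4, Tfdp1 and Rbbp4 fell, with -0.99 for Lin37 and -0.62 for E2f4. The 5 rises were 3 without either SMRTmRID array or without wild-type replicate 1.

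Cohesin genes stood at the other end. Of the 12 tested, 10 rose, against 30.3% of all genes tested, and Mau2 and Esco2 did not pass. The median was 0.96. The loader gene Nipbl rose by 1.55 on the log2 scale, the subunit gene Stag2 by 1.52 and the release factor gene Wapl by 1.27. Esco1, which acetylates cohesin, had signals of 170.3 and 166 in SMRTmRID, against 10.3 and 19.2 in wild-type, so that it passed the filter only through SMRTmRID and the size of its difference depends on the 16 added. The core subunits Smc1a, Smc3 and Rad21 rose by 0.77, 1.00 and 0.50, in the direction of condensin's Smc2 and Smc4. Of 12 inhibitors of cyclin-dependent kinases and p53 targets 9 fell and 3 rose, where 35.0% of all genes tested fell and 30.3% rose. Cdkn1a, which encodes the inhibitor p21, had signals of 171 and 139 in SMRTmRID, against 2374 and 2325 in wild-type. Its log2 difference was -3.79 ± 0.09 (SE) (adjusted p = 1.48e-09, limma). Cdkn2a and Cdkn2b, which encode further inhibitors, rose by 2.13 and 1.67, and the p53 target Ccng1 had a difference of -1.59. Whether the level of Cdkn1a bears on the mitotic genes was not tested.

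**Figure D4:**
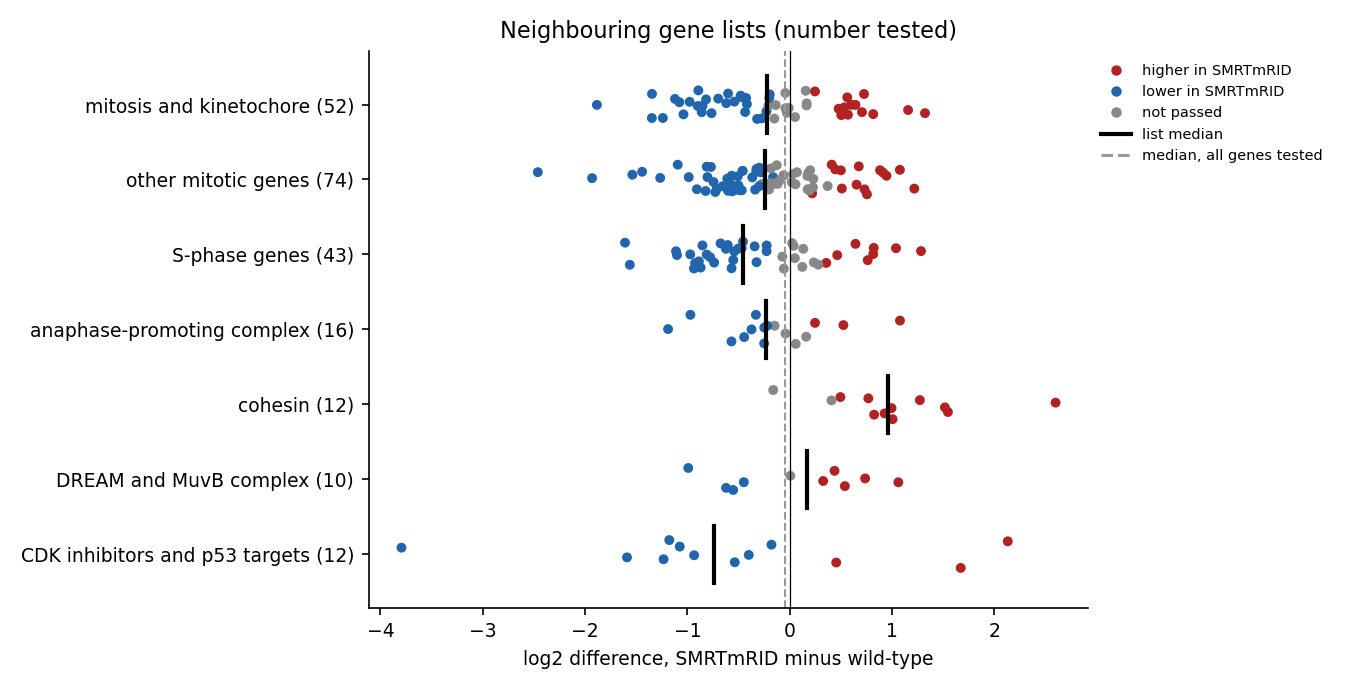
Log2 difference (SMRTmRID minus wild-type) of each gene tested in 7 lists, with the number tested after the name; points are genes coloured by call, black bars list medians and the dashed line the median of all genes tested. Cohesin has its median at 0.96 and the mitosis and kinetochore genes theirs at -0.22.

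The genes that rose were mostly longer than those that fell. Gene length here is the span of the gene on GRCm38.p6, introns included, and its relation to the difference is described with no test. The 13 that rose had a median length of 31.7 kb, from 16.9 for Plk4 to 61.0 for Cenpe, and the 28 that fell 12.6 kb, from 2.97 for Ube2c to 58.0 for Anln. When all genes tested were divided into 5 equal classes of length, the 2 shortest classes, up to 17.1 kb, held 21 of the mitotic genes, of which 18 fell and 1, Plk4, rose. Of all genes tested, 46.8% and 41.5% fell and 17.5% and 21.2% rose in these classes. In the middle class 9 fell and 6 rose of 17, against 36.1% and 27.9% of all genes. In the 2 longest classes, above 31.7 kb, 6 rose and 1 fell of 14, where 39.2% and 45.5% of all genes rose and 27.2% and 23.6% fell. Mybl2, at 30.4 kb, was the longest of those that fell apart from Anln.

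Across the 52 genes the difference and the length had a Spearman's rho of 0.67 and a Pearson's r of 0.56 with log2 length. The points come from the same 4 arrays and genes are not independent replicates, so the values are a description. This rank correlation was 0.67 for the 47 genes off chromosome 7 and 0.65 for 51 genes read only from probe sets without the suffixes that mark shared probes. It was 0.40 for the other mitotic genes, 0.37 for the S-phase genes and 0.23 for 11042 genes tested that have a length. Over all of these the median difference was -0.23 in the shortest class and 0.22 in the longest, and genes called higher and lower had median lengths of 37.8 and 16.8 kb. Length of the mature transcript was not analysed here. The part of RNA quality in this was not tested, and the beta-actin control gave a ratio of 3′ over 5′ signal that was 1.20 on both SMRTmRID arrays and 1.19 and 1.20 on the wild-type arrays. The difference also ran with the mean signal of a gene, with a Spearman's rho of -0.40 across the 52 and -0.08 across the 11042 genes. The part of signal in the relation to length was not tested.

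**Figure D5:**
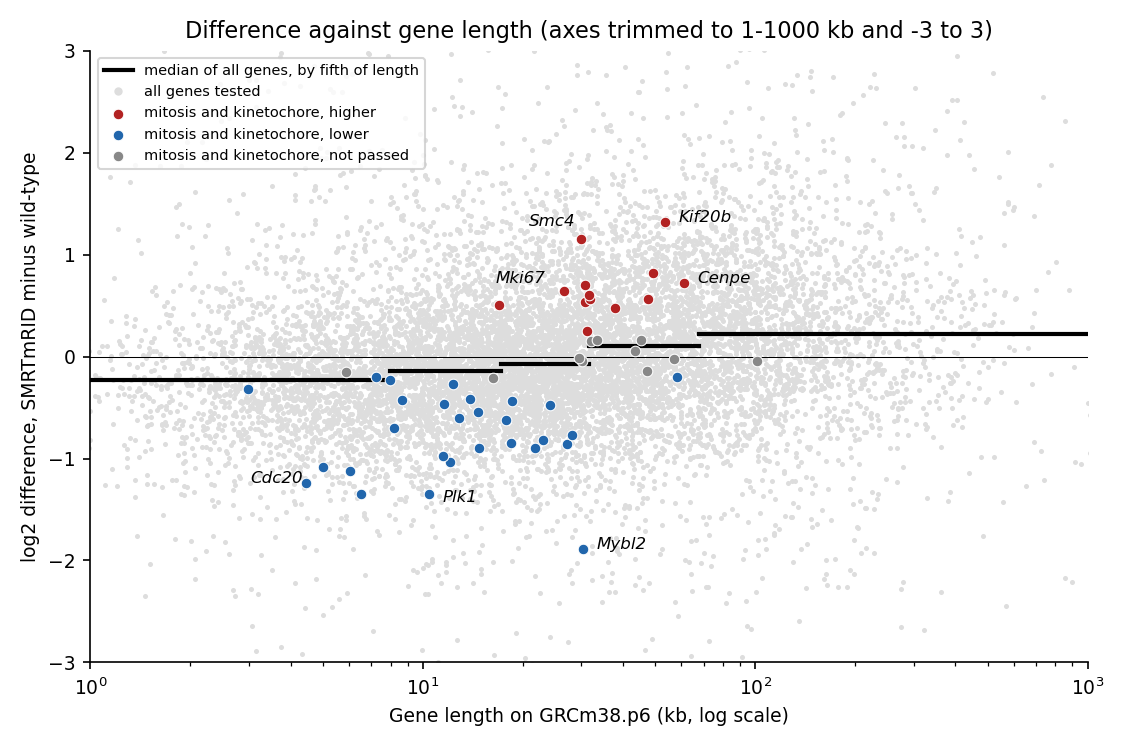
Log2 difference (SMRTmRID minus wild-type) against gene length on a log axis for all genes tested (light grey; axes trimmed) and for the 52 mitosis and kinetochore genes, coloured by call, with black lines at the median of all genes in each of 5 length classes. Red points lie mostly to the right of blue ones, and Mybl2 is the lowest of the coloured points.

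The position of the genes was examined because chromosome 7 stood apart. Of 817 genes tested on it 500 fell and 76 rose, with a median of -0.54, while the medians of the other chromosomes lay between -0.29 and 0.36. Mitotic genes on chromosome 7 were Plk1, Bub3, Prc1, Kif22 and Mki67. Relative to that median the first 4 had differences of -0.81, -0.44, -0.36 and -0.35, and Mki67 one of 1.18. These are from the brightest probe sets, and the second one of Bub3, at -0.43, did not lie below the chromosome median. Among genes named from the neighbouring lists, Anapc15, Ube2s, Lin37 and E2f8 also lie on chromosome 7. Relative to its median they had differences of -0.65, -0.43, -0.45 and -0.57. Set against the median of its own chromosome, each of the 41 called genes kept its sign, while sizes changed: the difference of Pttg1 was -0.038 in place of -0.20, and 31 of the 52 moved by at least their standard error with the sign kept. The median of the 52 was -0.32. DNA copy number was not analysed here.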

How the data were processed

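Total RNA of 3T3-MEFs was hybridised to single-colour arrays, 2 per genotype. The deposited values are intensities on a linear scale that the authors made with MAS5, per the submitters' processing notes; the scaling was read from the values (1 trimmed mean for all arrays). Of 45101 probe sets, 64 controls were left out, 34945 had 1 gene symbol, 932 several and 9160 none (platform annotation, updated by gene ID). For each gene the brightest probe set was used, and genes with a mean signal above the median of 35.1 were tested: 11057 genes, log2(signal + 16), limma 3.58.1 in R 4.3.3 (lmFit, eBayes with trend), Benjamini-Hochberg adjustment, threshold 0.05. The fit was also run on simulated data in which few genes were changed. Here 65.2% of genes were called, so that run does not bear on data with so many changes.

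The genes and lists were chosen with earlier results of these data known. Values on each array were set for the 10 greatest rises, the 12 greatest falls and 3 role groups, and up to 4 called genes named per comparison list. Values on each array for other genes of the list were added after the results were seen, to complete the complexes. The descriptions by gene length, chromosome and promoter motif were also chosen after seeing the data. Same-numbered arrays did not deviate together (r = 0.0122 over genes), so the numbers do not pair them. Alternatives covered the pseudocount, filter, normalization, variance trend, probe set choice, replicate block and each array left out; centring by chromosome and leaving out probe sets ending in s_at or x_at were chosen after seeing the data.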

Additional observations from a re-analysis of the deposited data

How the results depend on the processing

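Of the 41 mitotic genes called, 27 (7 higher, 20 lower) kept direction and call in all of the 14 settings in which they were tested. The number called ranged from 31, with a gene's probe sets averaged, to 42, with the replicate block, which called 1 more gene, Mad2l1 (adjusted p = 0.0386, limma). The labels do not say which step the technical replicates repeat, and 2 arrays per genotype limit the precision. Restricting to genes above the 75th percentile of signal left 8 mitotic genes higher, 9 other mitotic genes higher, 22 S-phase genes called with 4 higher, and 5 DREAM genes called with 1 higher. DREAM genes called higher were also 2 with no filter, 2 with quantile normalization, 3 with median centring, 3 with averaged probe sets and 3 to 4 with 1 array left out. S-phase genes called higher were 5 to 8 with 1 array left out, and 1 cohesin gene was lower under median centring and under averaged probe sets. The median of the mitotic genes was -0.32 above the 75th percentile, -0.38 with median centring and -0.32 relative to chromosome medians. Signs turned only for genes that had not passed with all arrays and the main settings: Bub1b (-0.11 with median centring, -0.28 with averaged probe sets, where it was called lower at an adjusted p of 0.0357 by limma, -0.052 without wild-type replicate 2), Ect2 (0.053 without SMRTmRID replicate 2, 0.047 without wild-type replicate 1), Hmmr (-0.0066 with median centring), Kif11 (-0.019 with averaged probe sets), Kif23 (-0.13 without SMRTmRID replicate 2 to 0.11 without SMRTmRID replicate 1, 0.053 without wild-type replicate 2, 0.035 relative to its chromosome) and Kif4 (0.16 without SMRTmRID replicate 1, 0.20 without wild-type replicate 1). The cause was not tested, except that the stricter filter tests fewer genes. Median centring ended the calls of Cenpf, Ttk and Top2a, and averaging probe sets those of Anln, Aurka, Bub1, Cdc25c, Cenpa, Ncapd2, Nek2, Nusap1, Pttg1, Spc25 and Top2a.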
